A study of Mus musculus with 2 samples.

Results

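The miR-23/27/24 clusters are 2 paralogous groups of miRNA genes, one on mouse chromosome 13 (Mir23b, Mir27b and Mir24-1) and one on chromosome 8 (Mir23a, Mir27a and Mir24-2). Their members were taken by symbol, through the Ensembl identifiers of GENCODE release M21, and 5 of the 6 were found among the 1973 genes of the deposited tables. Mir24-1 had no identifier of its own there, and a gene that overlaps its hairpin is described in its place. The material was forebrain of B6NCrl mouse embryos, males and females pooled, at 10.5 days of development, with no treatment or mutation, as 1 group of 2 libraries. Tissue from 69 embryos was pooled for replicate 1 and from 51 embryos for replicate 2, each with its own biosample and biological replicate number in the labels. The labels name the tissue only as forebrain, so cells of vessels, blood and coverings may be in the pools beside neural cells.

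Hairpins of such a cluster are typically cut from a shared primary RNA, first by Drosha and then by Dicer, which leave a short mature miRNA from each arm. A mature miRNA finds its target mRNAs mainly through its seed, bases 2 to 8 from the 5′ end, and lowers their translation and stability. miR-23, miR-27 and miR-24 are known from endothelial cells and vessel growth, from blood cells, and from the control of proliferation and apoptosis. The chromosome 8 cluster, or its human counterpart, is known to have a promoter of its own outside any protein-coding gene, while the chromosome 13 cluster lies within one.

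The mature sequences show what the count tables could and could not separate. They come from the RefSeq table of build GRCm38.p6, which matched every member; it gave 11 mature entries, with miR-23b-3p not among them. Each is written 5′ to 3′ with the seed in capitals, the arms from which most mature miRNA of these families is known to come first.

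miR-27b-3p: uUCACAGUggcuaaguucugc
miR-27a-3p: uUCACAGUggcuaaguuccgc
miR-23a-3p: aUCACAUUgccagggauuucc
miR-24-3p: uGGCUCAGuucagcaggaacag
miR-24-1-5p: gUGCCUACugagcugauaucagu
miR-24-2-5p: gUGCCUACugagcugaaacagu

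The pair miR-27b-3p and miR-27a-3p has 1 seed and differs at 1 base, C19U, counted from the 5′ end with the base of miR-27a first, so their first 18 bases are the same. miR-24-3p is held by both miR-24 hairpins letter for letter. The 5p arms of those hairpins share their first 16 bases, seed included, and then part. The other 5p arms have seeds that differ between paralogs, as in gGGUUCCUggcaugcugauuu of miR-23b-5p and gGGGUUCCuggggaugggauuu of miR-23a-5p, or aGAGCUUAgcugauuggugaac of miR-27b-5p and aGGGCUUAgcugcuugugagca of miR-27a-5p. No other mature miRNA in the RefSeq table had the seed of miR-23a-3p or miR-27-3p. miR-23b-3p has no entry in that table, so whether it shares the seed of miR-23a-3p was not compared. The seed of miR-24-3p also occurs in miR-5124b, miR-6369, miR-6410 and miR-6413, whose genes had 0 counts in both libraries, which allows up to 0.921 CPM in replicate 1 and 0.839 CPM in replicate 2.

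Over whole hairpins, the longest run of identical bases was 20 between Mir23b and Mir23a, 20 between Mir27b and Mir27a, and 28 between Mir24-1 and Mir24-2. Reads with more than 1 place in the genome are in no gene's count. Among stretches of 22 bases, 0 of 53 in Mir23b, 0 of 52 in Mir27b, 0 of 54 in Mir23a and 0 of 66 in Mir27a recurred in another of the 1005 hairpins of the table. In the miR-24 pair 7 of 47 such stretches of Mir24-1 and 7 of 86 of Mir24-2 recurred, each time in the other paralog. Between the paralogs of the miR-23 and miR-27 pairs the 0 follows from the longest run of 20. The mature miR-27b-3p, miR-27a-3p and miR-23a-3p are also shorter than these stretches, with 21 bases. Among stretches of 18 bases, 3 in each miR-23 and miR-27 hairpin recurred in its paralog, against 11 in each miR-24 hairpin. These are exact matches among the hairpins of the table. Matches elsewhere in the genome, or with a mismatch, were not searched. A read of full-length miR-24-3p matches both miR-24 hairpins, which makes the miR-24 counts lower limits.

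The 3 hairpins of the chromosome 13 cluster lie on the plus strand within 792 bases, from 63300484 to 63301275 in mm10. Mir23b (63300484 to 63300557) lies in an intron of the protein-coding gene 2010111I01Rik on the same strand. Mir27b (63300712 to 63300784) and Mir24-1 (63301208 to 63301275) overlap annotated exons of that gene, and all 3 lie inside an intron of Fancc on the other strand. The chromosome 8 cluster is more compact, with 404 bases from 84208518 to 84208921, also on the plus strand. Mir23a (84208518 to 84208592) and Mir27a (84208672 to 84208758) overlap no annotated gene. Mir24-2 (84208815 to 84208921) overlaps the non-coding gene Gm26532 by 2 bases. Each miR-24 hairpin has an antisense miRNA gene over it, Mir3074-1 on chromosome 13 and Mir3074-2 on chromosome 8.

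The libraries held 3256070 counts on the strand of the gene in replicate 1 and 3574530 in replicate 2, and levels below are CPM, the count of a gene scaled to a total of 1e+06. Reads placed at several loci and so left out made up 30.1% of all reads in replicate 1 and 28.8% in replicate 2. The forebrain label was checked against miRNAs of neural progenitors and neurons, and of other tissues. The forebrain progenitor and neuron list, of which 8 of 9 genes were listed, held 1.90% ± 0.18 of the counts (SD, n = 2). Nearly all of it was Mir92b, and without that gene the list held 0.0809% ± 0.014. Its miR-9, miR-124 and miR-135a genes are of several loci and so lower limits. The miR-124 genes, which are of neurons, had mean levels of 1.02, 4.82 and 4.54 CPM. The hindbrain and trunk miRNAs of the Hox clusters together held 0.0267% ± 0.0042. Lists of other cells held 3.52% ± 0.19 for endothelium and vessel wall, 0.971% ± 0.090 for surface epithelium, 0.879% ± 0.018 for leukocytes, 0.771% ± 0.020 for head mesenchyme and 0.0711% ± 0.0070 for red blood cells. Without the most abundant gene of each, Mir126a for endothelium and Mir342 for leukocytes, the endothelium list held 0.471% ± 0.020 and the leukocyte list 0.0683% ± 0.0058. The cells that gave the reads of the 2 clusters were not tested, and in bulk tissue fewer cells of a type and less RNA per cell cannot be told apart.

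The counted hairpins of both clusters were found in each library, and miR-23 made up most of the reads counted for them. Together they held 1.12% of the counts in replicate 1 (95% exact Clopper-Pearson interval 1.11 to 1.13) and 0.981% in replicate 2 (0.971 to 0.991). The chromosome 13 cluster held 0.734% (0.725 to 0.743) in replicate 1 and 0.635% (0.627 to 0.643) in replicate 2, or 0.684% ± 0.070 (SD, n = 2). The chromosome 8 cluster held 0.387% (0.380 to 0.393) in replicate 1 and 0.346% (0.340 to 0.352) in replicate 2, or 0.366% ± 0.029. These intervals hold counting error alone, and PCR copies of a molecule are counted as separate reads. Of the reads counted for the 5 hairpins, the miR-23 pair supplied 89.7% ± 0.13, the miR-27 pair 9.46% ± 0.056 and Mir24-2 the remaining 0.859% ± 0.072. Reads of Mir24-1 and those shared by the miR-24 hairpins are not in this sum, so the miR-24 share is a lower limit and the shares of the other pairs are upper limits in that respect.

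Mir23b (ENSMUSG00000065599), the miR-23 hairpin of chromosome 13, was the most abundant member. It had 20867 counts in replicate 1 and 19779 in replicate 2, which is 6409 and 5533 CPM, with a mean of 5971 ± 619 CPM (SD, n = 2). It ranked 41 of 1973 genes by mean CPM, between Mir30d (6134 ± 473 CPM) and Mir302b (5890 ± 721 CPM), from which its level did not differ beyond the spread of the libraries. Of the 1973 genes only 676 had a count in replicate 1 and 681 in replicate 2.

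Mir23a (ENSMUSG00000065611), its paralog on chromosome 8, came next among the members. It had 11888 counts in replicate 1 and 11639 in replicate 2, or 3651 and 3256 CPM, with a mean of 3454 ± 279 CPM (SD, n = 2). Both libraries lay below both libraries of Mir23b. Its rank was 55, between Mir143, a miRNA of the vessel wall (3563 ± 395 CPM), and Mir381 of the imprinted Dlk1-Dio3 region (3276 ± 361 CPM), again within the spread.

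Mir27b (ENSMUSG00000065475), the chromosome 13 hairpin of miR-27, a miRNA known for its role in angiogenesis and in fat cell differentiation, had 3031 counts in replicate 1 and 2921 in replicate 2. These are 931 and 817 CPM, with a mean of 874 ± 80 CPM (SD, n = 2) and rank 112. Mir200b (899 ± 71 CPM) stood just above it and Mir340 (867 ± 67 CPM) just below, both within the spread.

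Mir27a (ENSMUSG00000065444), on chromosome 8, was counted far less often, with 407 counts in replicate 1 and 411 in replicate 2. Its levels were 125 and 115 CPM, with a mean of 120 ± 7.1 CPM (SD, n = 2) and rank 210. The genes next to it were Mir539 (120 ± 5.3 CPM) and Mir138-2 (116 ± 2.3 CPM), the second of which is a gene of several loci and so a lower limit.

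Mir24-2 (ENSMUSG00000065541) had 295 counts in replicate 1 and 319 in replicate 2, or 90.6 and 89.2 CPM, with a mean of 89.9 ± 0.96 CPM (SD, n = 2) and rank 223. Mir190a (91.6 ± 0.17 CPM) and Mirlet7f-2 (89.0 ± 14.4 CPM), a gene of several loci, stood next to it. The level of Mir24-2 counts only reads that carry letters of its own locus, so its place at the end of the order Mir23b, Mir23a, Mir27b, Mir27a, Mir24-2 says nothing of the amount of miR-24. No 2 neighbours in that order overlapped over the libraries. The likeness to neighbouring genes is in level alone, over 2 libraries.

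**Figure D1:**
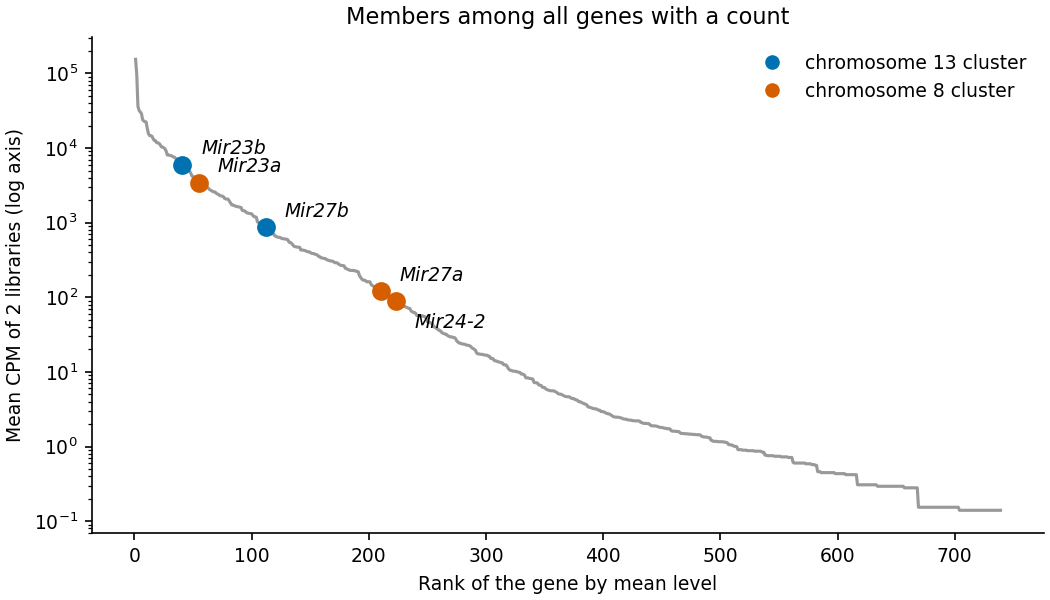
Mean level in CPM of 2 libraries (log axis) against rank for every gene with a count (grey line), with the 5 counted members as points, blue for chromosome 13 and orange for chromosome 8. Mir23b at rank 41 and Mir23a at rank 55 lie close together, while Mir27b at rank 112 and Mir27a at rank 210 lie far apart.

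Among reads placed at 1 locus, the 2 loci contributed unequally, and more so for miR-27 than for miR-23. Since both hairpins of a pair are read in the same library, their ratio does not depend on library size. On the log2 scale Mir23b exceeded Mir23a by 0.81 in replicate 1 and 0.76 in replicate 2, a mean of 0.79 ± 0.033 (SD, n = 2) or 1.73-fold. Mir23b thus supplied 63.7% (95% exact interval 63.2 to 64.2) of the reads counted for the miR-23 pair in replicate 1 and 63.0% (62.4 to 63.5) in replicate 2.

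Mir27b exceeded Mir27a by 2.90 on the log2 scale in replicate 1 and 2.83 in replicate 2, a mean of 2.86 ± 0.048 (SD, n = 2) or 7.27-fold. Of the reads counted for the miR-27 pair 88.2% (87.0 to 89.2) came from Mir27b in replicate 1 and 87.7% (86.5 to 88.8) in replicate 2. The 3p arms of this pair share their first 18 bases, and reads placed at several loci are in neither hairpin's count. How many reads fit both hairpins of the miR-23 or miR-27 pair was not tested, and the intervals do not cover it. The log2 ratio of the miR-27 pair was larger than that of the miR-23 pair by 2.08 in replicate 1 and 2.06 in replicate 2, or 2.07 ± 0.015, a gap far wider than the spread between libraries. With 2 libraries an exact sign-flip test cannot go below p = 0.5, so no p is given for these ratios.

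Within each cluster the miR-27 hairpin had fewer reads than the miR-23 hairpin. On chromosome 13 Mir27b lay below Mir23b by a log2 ratio of −2.78 in replicate 1 and −2.76 in replicate 2 (mean −2.77 ± 0.017), so that Mir23b had 6.83 times its reads. On chromosome 8 Mir27a lay below Mir23a by a log2 ratio of −4.87 in replicate 1 and −4.82 in replicate 2 (mean −4.84 ± 0.032), so that Mir23a had 28.7 times its reads. The gap between the hairpins was wider on chromosome 8 than on chromosome 13 in both libraries. By arithmetic that difference is the same 2.07 as between the 2 pair ratios above, and so not a second result. Reads of a mature miRNA are whole molecules, so levels were not divided by hairpin length; how ligation and amplification bias differ between these sequences was not tested. Divided by hairpin length, a setting added after the data were seen, the mean ratio was 0.81 for the miR-23 pair and 3.12 for the miR-27 pair.

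**Figure D2:**
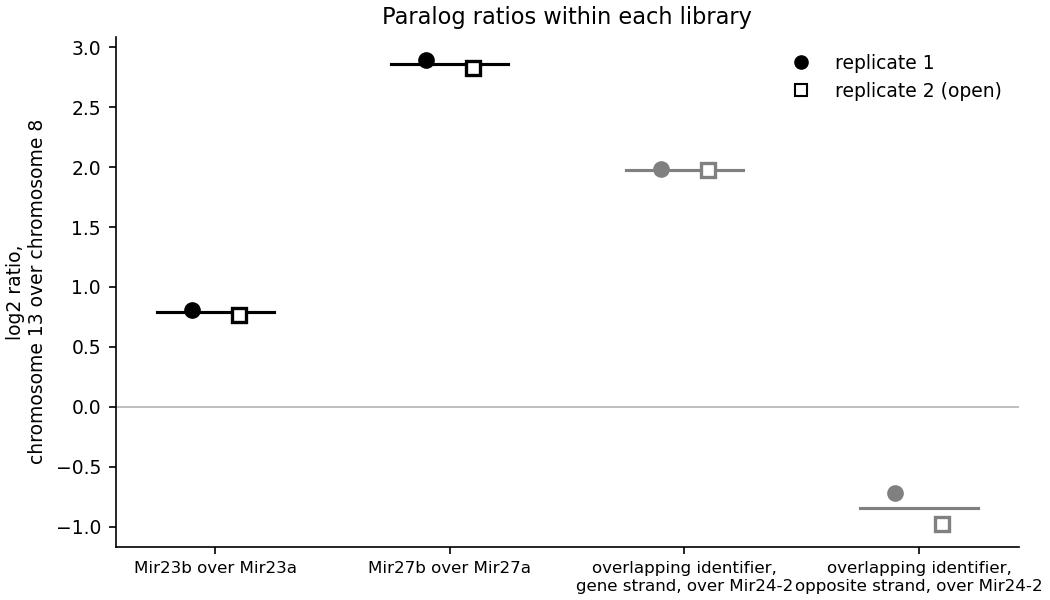
The log2 ratio of the chromosome 13 locus over the chromosome 8 locus in each library, with a bar at the mean of 2 libraries. Black symbols show Mir23b over Mir23a (mean 0.79) and Mir27b over Mir27a (mean 2.86), and grey symbols show the identifier that overlaps Mir24-1, by strand, over Mir24-2 (means 1.98 and −0.85).

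Summed over the counted hairpins, the chromosome 13 cluster exceeded the chromosome 8 cluster by 0.92 on the log2 scale in replicate 1 and 0.88 in replicate 2 (mean 0.90 ± 0.034, 1.87-fold). Mir23b held 87.2% ± 0.13 of the counted chromosome 13 reads and Mir23a 94.3% ± 0.23 of the counted chromosome 8 reads (SD, n = 2). The sums are thus mostly a comparison of the miR-23 hairpins.

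The locus of Mir24-1 was counted through another gene. The tables list ENSMUSG00000092741 in version 1, and GENCODE M21 gives version 2 of it as Mir3074-1, on the minus strand from 63301199 to 63301283, over the whole Mir24-1 hairpin. On the strand of that gene it had 1166 counts in replicate 1 and 1258 in replicate 2, or 355 ± 4.4 CPM (SD, n = 2). On the opposite strand it had 179 counts in replicate 1 and 162 in replicate 2, or 50.1 ± 6.8 CPM. The strand of version 1 in the annotation of the tables is not given in the sources used here, so which column holds the reads of the Mir24-1 strand cannot be told.

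The 2 readings give opposite orders for the miR-24 pair. The gene-strand counts exceeded Mir24-2 by a log2 ratio of 1.98 in each library (mean 1.98 ± 0.0022), and the opposite-strand counts lay at −0.72 in replicate 1 and −0.98 in replicate 2 (mean −0.85 ± 0.18). At the chromosome 8 locus, whose identifier has the same version in both annotations, 98.0% of the reads in replicate 1 and 99.4% in replicate 2 lay on the strand of Mir24-2. At the chromosome 13 locus 86.7% of the reads in replicate 1 and 88.6% in replicate 2 lay on the strand called the gene's. The antisense miRNA of both loci, miR-3074-5p, with the sequence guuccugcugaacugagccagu, is shown because its complement shares 20 bases with miR-24-3p and it too is held by both antisense hairpins. A full-length read of miR-24-3p or miR-3074-5p therefore points to both loci and can be in neither column.

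**Figure D3:**
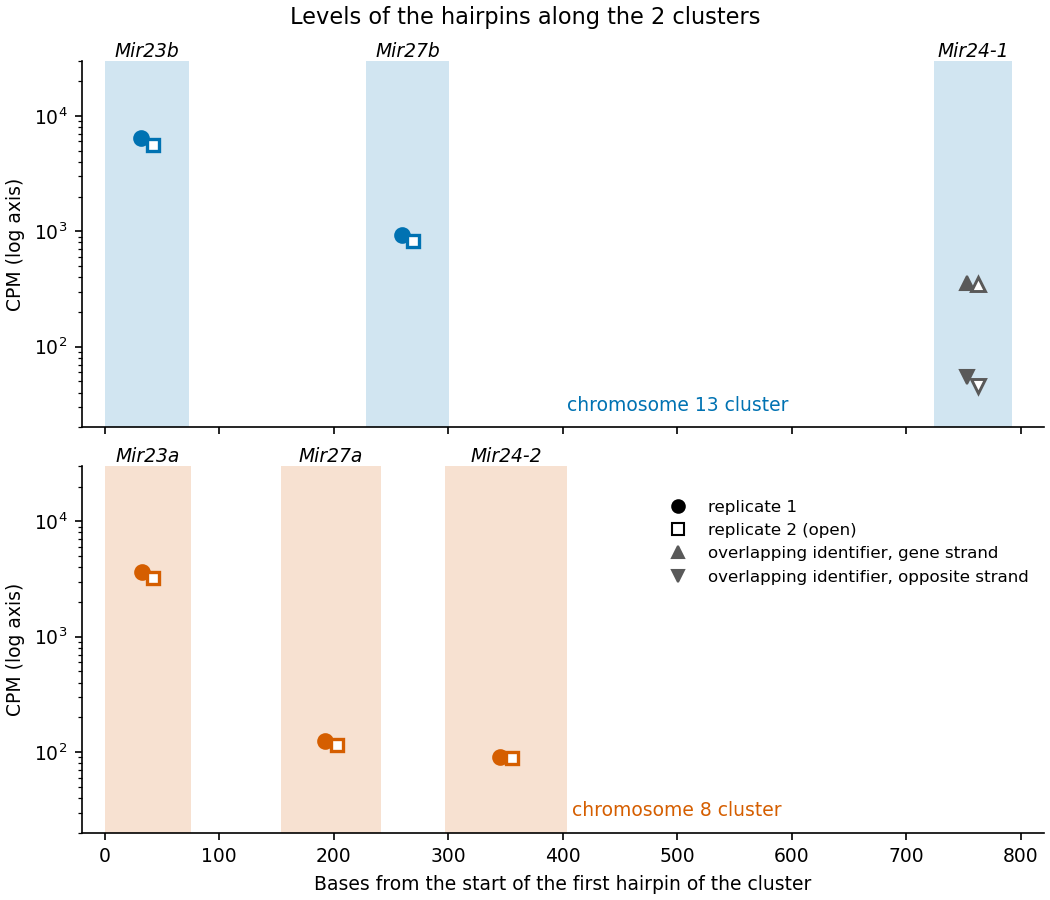
Level in CPM (log axis) of each hairpin, placed by its distance in bases from the start of the first hairpin of its cluster (shaded spans), with replicate 1 filled and replicate 2 open. The 2 libraries lie close together at every hairpin, Mir27b stands well above Mir27a, and over Mir24-1 the grey triangles give the overlapping identifier on the gene strand (355 CPM) and on the opposite strand (50.1 CPM).

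Between the 2 libraries the members differed by at most 0.18 on the log2 scale. As log2 ratios of replicate 1 over replicate 2 after TMM scaling, Mir23b stood at 0.18, Mir27b at 0.16, Mir23a at 0.13, Mir27a at 0.090 and Mir24-2 at −0.0089. Their median was 0.13, against −0.030 over the 401 genes whose mean count reached 10. The median size of the ratio over those genes was 0.17.

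A two-sided exact binomial test set each gene's division of reads over the 2 libraries against that of the scaled library sizes, with p-values adjusted over 401 genes by the method of Benjamini and Hochberg. It called 3 of the 5 counted members, each higher in replicate 1. In all 43.4% of the tested genes were called in either direction, 19.7% higher and 23.7% lower in replicate 1. The adjusted p of this exact test was 1.3e-35 for Mir23b, 5.0e-12 for Mir23a, 9.0e-05 for Mir27b, 0.56 for Mir27a and 1 for Mir24-2. The members that passed are those with the most counts, at ratios no larger than 0.18. It weighs counting error alone and says only how these libraries differ.

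The endothelium and vessel wall miRNAs, a cell type these clusters are known from, were mostly lower in replicate 1. Of the 7 named 6 were listed, with Mir145b at 0 counts in both libraries. Of the 5 tested genes of that list 1 was called higher in replicate 1 and 3 were called lower, with a median log2 ratio of −0.17, beside 19.7% higher and 23.7% lower over all tested genes. Mir126a, the miRNA of the Egfl7 gene of endothelial cells, had 29029 CPM in replicate 1 and 31930 CPM in replicate 2, a log2 ratio of −0.17 (adjusted p = 1.3e-153, exact binomial test). Mir221 and Mir222, a pair of miRNAs known from endothelium and smooth muscle, stood at −0.46 and −0.30. Mir143, of smooth muscle, stood at 0.20.

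The other lists are to be read against the same shares of 19.7% called higher and 23.7% called lower. In the forebrain progenitor and neuron list 4 of 7 tested genes were called higher in replicate 1 and 0 lower (median 0.16). No miR-124 gene was among those called. Mir124a-1 had too few counts to be tested. Mir124a-2 had 15 counts in replicate 1 and 18 in replicate 2, and Mir124a-3 had 15 and 16, where only large ratios could be called. In the surface epithelium list 5 of 7 were called higher and 0 lower (median 0.13). In the head mesenchyme list 1 of 5 was called higher and 1 lower (median −0.039), in the leukocyte list 1 of 3 higher and 0 lower (median 0.095), in the red blood cell list 0 of 2 higher and 1 lower (median −0.061), and in the hindbrain and trunk list 0 of 4 higher and 2 lower (median −0.31). What part the makeup of the pools had in the ratios of the clusters was not tested.

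**Figure D4:**
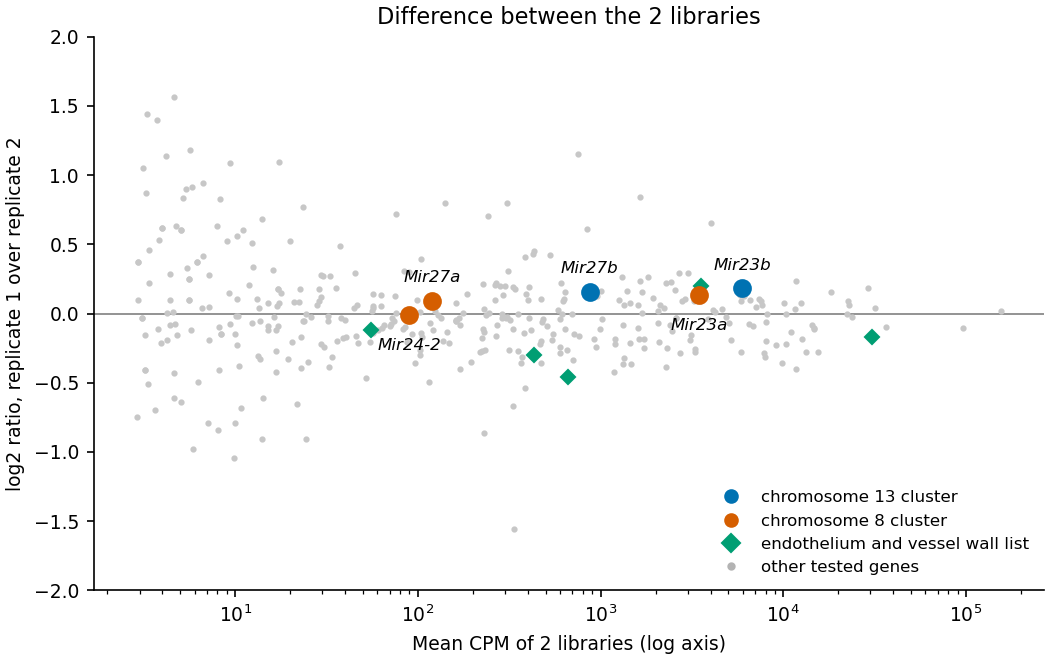
The log2 ratio of replicate 1 over replicate 2 against mean CPM (log axis) for the 401 tested genes (grey), with the 5 counted members in blue and orange and the endothelium and vessel wall list as green diamonds; 3 grey genes lie beyond the axis. The members lie between −0.0089 and 0.18, and 4 of the 5 green diamonds lie below zero.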

How the data were processed

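Small RNA was measured in 2 libraries of mouse embryonic forebrain. As deposited, the values are raw read counts for each gene, given for either strand, the strand of the gene and the opposite strand. The authors used assembly mm10, per the labels, and genome annotation M4, per the authors' file notes; aligner and counter: not given in the sources used here. Reads mapped to several places were tallied apart, and the 4 tallies, which name no gene, stayed out of library sizes and tests. Unmapped reads were 24.6% of all reads in replicate 1 and 25.4% in replicate 2. Reads on the gene strand of no listed gene were 7.28% in replicate 1 and 8.82% in replicate 2. Those include the opposite-strand reads of listed genes. Of 1973 identifiers 1894 matched GENCODE M21, 1815 of them in the same version; Mir23b and Mir27b matched in another version.

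Gene-strand counts were scaled to CPM. Ratios used a pseudocount of 0.5 counts, and between libraries TMM scaling in edgeR 4.0.16 under R 4.3.3, over genes whose mean count was at least 10. The quasi-likelihood test was not used, since 1 group of 2 libraries gives no contrast with spare degrees of freedom. The threshold was an adjusted p of 0.05. A count of 0 allows up to 3 counts. Other steps ran in Python 3.11.15 (scipy 1.17.1, numpy 2.4.6, pandas 2.3.3), with figures by matplotlib 3.10.9. The binomial test was tried on simulated Poisson counts, which hold counting error and no further spread between libraries.

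The members and lists were chosen with earlier results of these data known. Genes named are the members, the gene next above and below each in mean CPM, overlapping genes and those within 10000 bases where the text turns on them, miRNAs of the same seed and the vessel list. Alternatives were total-count scaling, DESeq2 1.42.0 size factors, no filter, either-strand counts, another pseudocount, all reads as denominator and each library left out.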

Additional observations from a re-analysis of the deposited data

Results flagged for a closer look

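Levels were taken from reads on the strand of the gene. Reads on the opposite strand exceeded the 3 counts that a count of 0 allows at both miR-24 loci. At the identifier that overlaps Mir24-1 they numbered 179 in replicate 1 and 162 in replicate 2. At Mir24-2 they numbered 6 in replicate 1 and 2 in replicate 2, so only replicate 1 passed. Mir23b, Mir23a and Mir27a had 0 such reads in both libraries, and Mir27b had 0 in replicate 1 and 1 in replicate 2.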

How the results depend on the processing

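With all reads of a library as the denominator, the chromosome 13 share was 0.257% and the chromosome 8 share 0.138%, and the levels of the 5 counted members fell in the same way, because the denominator is larger. The log2 ratio of the clusters, 0.90 as reported, was 0.94 without the miR-24 hairpins, 0.94 per base of hairpin and 0.97 with the gene-strand counts of the overlapping identifier added. With the opposite-strand counts of that identifier added instead, the ratio was 0.91. Per base of hairpin, Mir27b over Mir27a was 3.12, Mir27b over Mir23b −2.75 and Mir27a over Mir23a −5.06 on the log2 scale. Settings with hairpin length or the overlapping identifier were chosen after seeing the data. Leaving out a library gave 0.635% to 0.734% for the chromosome 13 share, 0.346% to 0.387% for the chromosome 8 share, 0.88 to 0.92 for the log2 ratio of the clusters, 0.76 to 0.81 for Mir23b over Mir23a and 2.83 to 2.90 for Mir27b over Mir27a. The replicate ratio of Mir24-2, −0.0089, changed sign to 0.022 with total-count scaling, 0.021 with DESeq2 size factors and 0.011 with either-strand counts, and it passed the test under none of them. The count of 3 members called held under each of the 4 alternatives run on it; without the filter on low counts 23% of 739 genes were called. No value could be computed for Mir24-1 over Mir24-2, since Mir24-1 has no identifier in the tables. No paired analysis was possible because the study has 1 group. Depth limits Mir27a and Mir24-2 most, with 407 and 295 counts in replicate 1.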
